A study of Mus musculus with 2 samples.

Results

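The genes described here encode the enzymes of glycolysis, of glycogen synthesis and breakdown, and of the oxidation of pyruvate, in the heart of the mouse embryo. They are 39 genes chosen by name: the identifier of each row, with its version removed, was matched to a GENCODE symbol, and all 39 were found among 43346 Ensembl genes. The rule itself uses no measured value, although the list was drawn up with earlier results of these data known. The genes fall into 18 steps, of which 10 hold several isoenzymes, 7 hold a single gene and the last is the pyruvate dehydrogenase complex with 4 subunit genes.

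Glycolysis turns glucose into pyruvate in the cytosol. Hexokinase traps glucose in the cell as glucose 6-phosphate, phosphofructokinase-1 commits it to breakdown, and the later steps yield ATP and NADH. Lactate dehydrogenase then turns pyruvate into lactate and regenerates NAD+, whereas the pyruvate dehydrogenase complex turns it into acetyl-CoA within the mitochondrion. The embryonic heart is known for a strong use of glucose and for glycogen stores in its muscle cells, while the adult heart relies mostly on fatty acids. Many of the steps have a broadly expressed isoenzyme and another that is typical of muscle, brain or liver.

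Total RNA was sequenced from the hearts of healthy mouse embryos of strain B6NCrl, a C57BL/6N substrain, at embryonic day 10.5. There was 1 group, and its 2 biological replicates were separate pools of hearts, taken from 69 embryos (replicate 1) and 51 embryos (replicate 2) of mixed sex. Each library was made from 10 ng of RNA above 200 nt with ERCC spike-ins, and no treatment or genotype other than the strain is given. The libraries held 45205713 and 41070978 expected counts, which are estimated reads per gene, and TPM, a relative abundance, divides such counts by length and scales every library to the same total. Each value is an average over pooled embryos and over every cell type of the dissected tissue, and fewer cells of a type cannot be told apart from less RNA per cell. With no other condition and 1 library per pool, the comparisons are between genes and between the pools, no p-value was computed, and each SD is over n = 2 pools.

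The pools differed in their markers of other tissues. All 12 heart muscle markers were detected at 1 TPM or more in both pools, with summed levels of 26242 and 44265 TPM in replicates 1 and 2, and all 12 were higher in replicate 2 (median log2 ratio 0.87). The 9 markers of embryonic red cells summed to 32736 and 40954 TPM, and all 9 were higher in replicate 2 (median log2 ratio 0.36). The 10 markers of the liver primordium, such as Afp and Alb, summed to 1613 TPM in replicate 1 and 82.3 TPM in replicate 2, and all 10 were higher in replicate 1 (median log2 ratio -4.64). The 5 foregut markers (37.8 and 8.14 TPM) were all higher in replicate 1, as were 7 of 8 myeloid markers, which summed to 62.5 and 67.6 TPM. Of 7 endothelial markers, which summed to 331 and 386 TPM, 6 were higher in replicate 2 (median log2 ratio 0.52). Markers of epicardium summed to 235 and 217 TPM (median -0.08) and those of cushion mesenchyme to 818 and 587 TPM (median -0.64). Lists for skeletal myoblasts (6.61 and 2.25 TPM, median -1.71) and for neural and neural crest cells (15.1 and 9.46 TPM, median -1.73) were low in both pools, and their 4 genes each with a mean count of 10 or more were all higher in replicate 1. The part of these cell types in the ratios between pools given further on was not tested.

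Most of the enzyme genes were expressed, over a wide range of levels. Of the 39 genes, 36 reached 1 TPM in both pools, with expected counts from 237 to 170224 per pool. Together the 39 genes held 17167 TPM in replicate 1 and 19647 TPM in replicate 2, which was 2.11% and 2.37% of the summed TPM of protein-coding genes of the nucleus. The 6 genes with the highest levels all act in the later part of glycolysis, from aldolase to lactate dehydrogenase. Among 21461 nuclear protein-coding genes ranked by TPM, 6 members lay in the first 100 in both pools: Ldha (ranks 11 and 14), Gapdh (13 and 15), Eno1 (14 and 20), Aldoa (34 and 29), Tpi1 (59 and 52) and Pgam1 (82 and 93). The 3 genes below 1 TPM in both pools were Hk3, Fbp1 and Fbp2.

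**Figure D1:**
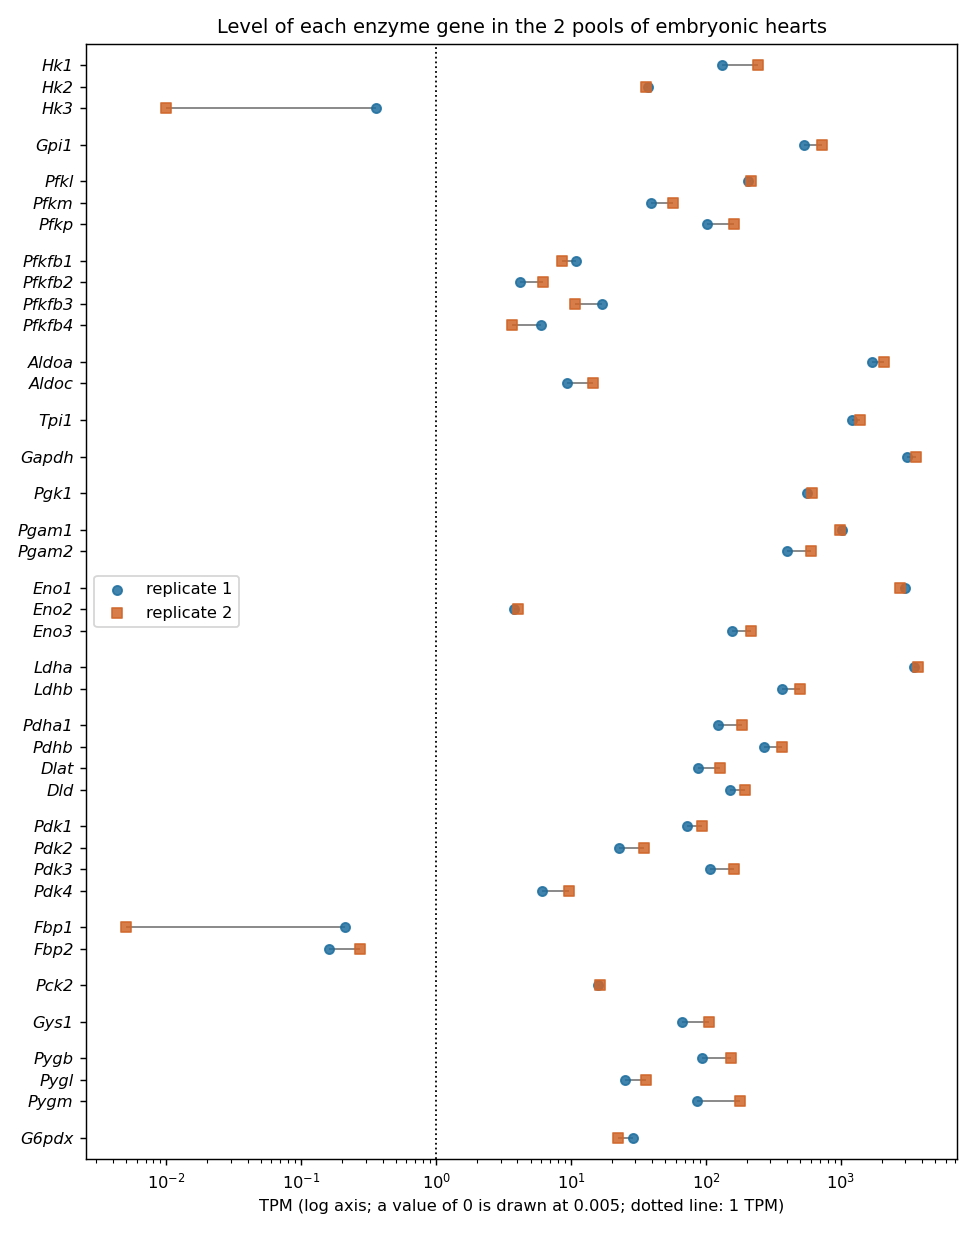
Level of each of the 39 genes in TPM on a log axis, grouped by step, with a circle for replicate 1, a square for replicate 2 and a dotted line at 1 TPM. Ldha, Gapdh and Eno1 lie furthest to the right at 2744 TPM or more in both pools, and Hk3, Fbp1 and Fbp2 lie left of the line; the value of 0 for Fbp1 in replicate 2 is drawn at 0.005.

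Promoter windows of 5 members are shown, of abundant glycolytic enzymes (Ldha, Aldoa and Pgk1) and of the muscle isoenzymes Pgam2 and Pygm. They were chosen after the values had been seen, and the windows of other muscle isoenzymes (Pfkm, Eno3 and Fbp2) are not printed. Each window is the 250 bases upstream of the RefSeq transcription start in build GRCm38.p6, written 5′ to 3′ on the strand of the gene. Capitals mark matches to ACGTG or, on the other strand, CACGT, the core shared by the response element of hypoxia-inducible factors and by many E-boxes; overlapping matches (CACGTG) count once. The windows lie at chr7:46845554-46845803 (+ strand) for Ldha, chrX:106186850-106187099 (+ strand) for Pgk1, chr7:126799255-126799504 (- strand) for Aldoa, chr11:5803797-5804046 (- strand) for Pgam2 and chr19:6384158-6384407 (+ strand) for Pygm.
Ldha: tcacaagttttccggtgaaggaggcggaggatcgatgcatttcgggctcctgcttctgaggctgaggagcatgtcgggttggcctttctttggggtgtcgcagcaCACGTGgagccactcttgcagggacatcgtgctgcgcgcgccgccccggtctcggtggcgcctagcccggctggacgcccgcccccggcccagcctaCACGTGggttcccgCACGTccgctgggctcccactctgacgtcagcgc
Pgk1: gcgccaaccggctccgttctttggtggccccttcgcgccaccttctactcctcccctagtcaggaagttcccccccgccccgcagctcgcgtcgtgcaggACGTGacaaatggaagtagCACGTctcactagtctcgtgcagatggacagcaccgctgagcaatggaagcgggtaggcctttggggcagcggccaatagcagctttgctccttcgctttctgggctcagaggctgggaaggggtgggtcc
Aldoa: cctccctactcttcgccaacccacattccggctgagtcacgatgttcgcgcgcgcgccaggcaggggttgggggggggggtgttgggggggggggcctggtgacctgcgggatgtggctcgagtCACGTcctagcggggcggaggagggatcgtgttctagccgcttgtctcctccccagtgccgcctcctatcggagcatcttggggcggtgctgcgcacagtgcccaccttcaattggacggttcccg
Pgam2: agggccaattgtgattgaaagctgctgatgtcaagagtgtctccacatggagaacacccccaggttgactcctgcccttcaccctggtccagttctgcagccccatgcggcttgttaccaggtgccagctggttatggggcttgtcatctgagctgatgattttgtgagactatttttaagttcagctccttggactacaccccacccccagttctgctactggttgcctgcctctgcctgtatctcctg
Pygm: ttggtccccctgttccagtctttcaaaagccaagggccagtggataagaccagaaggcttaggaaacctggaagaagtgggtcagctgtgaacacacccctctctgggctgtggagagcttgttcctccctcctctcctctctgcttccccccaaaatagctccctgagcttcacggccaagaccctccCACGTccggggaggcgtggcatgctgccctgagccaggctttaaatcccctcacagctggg

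The Ldha window held 3 matches, that of Pgk1 2, those of Aldoa and Pygm 1 each and that of Pgam2 0. Of the 36 detected members, 32 had a RefSeq start within 100 nt of the start of their main coding transcript, and 14 of these 32 windows (43.8%) held at least 1 match. The same was found in 21.6% of 12342 windows of protein-coding genes detected in both pools and in 16.6% of 32817 windows of all genes. Both backgrounds took every unique RefSeq start of a gene, with no choice by main transcript and no distance limit. The shares are therefore not from like sets of windows. The detected members left out by the distance limit, Hk1, Tpi1, Eno1 and G6pdx, each had 0 matches in their nearest window. Median GC content was 59.6% for the members and 60.0% for the detected protein-coding genes, against 52.4% for all windows. The other detected members with a match were Hk2 (2 matches) and, with 1 each, Pfkm, Pfkfb2, Pfkfb3, Pgam1, Pdhb, Pdk2, Pdk3, Pygb and Pygl, whereas Gapdh had 0. A match describes the letters of the window and does not show that a factor binds there. These data hold no measure of binding.

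At each step with several isoenzymes, the gene with the highest TPM was compared with the next. A lead was taken as larger than the spread between pools where it had the same sign in both and its mean log2 ratio exceeded a limit. That limit combines the 95th percentiles of the absolute log2 TPM ratio between pools over the 500 genes nearest in level to each gene of the pair. The same gene led in both pools at 8 of the 10 steps, and 5 of the leads passed the limit: Hk1, Aldoa, Pgam1, Eno1 and Ldha.

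Glucose enters the pathway through hexokinase, and Hk1 held most of the TPM of that step. Hk1, the broadly expressed form that binds mitochondria (ENSMUSG00000037012.14, mm10 chr10:62268855-62379908, - strand), had 131 and 243 TPM in replicates 1 and 2, or 82.4 ± 6.79% of the step's TPM. Hk2, the form typical of insulin-sensitive muscle and of growing cells, stood at 37.3 and 35.6 TPM. Hk1 was higher than Hk2 by 3.51-fold and 6.84-fold, a mean log2 ratio of 2.29 ± 0.68 against a limit of 1.06. Hk3, known from white blood cells, had 32 counts in replicate 1 and 1 in replicate 2. After scaling, with no prior count, that is 26.9-fold in favour of replicate 1, with an exact 95% interval of 4.49 to 1095 that covers counting error only. Hk3 therefore rests on few reads. The TPM intervals that the authors deposited for Hk3 overlapped, at 0.380 to 1.06 in replicate 1 and 0.0909 to 0.696 in replicate 2. Hk3 also overlaps the opposite-strand gene Unc5a (170 and 179 counts). Of the 8 myeloid markers given above, 7 were also higher in replicate 1, with a list median log2 ratio of -1.30. Lyz2, the most abundant of them, went the other way (1.34). All 10 liver primordium and all 5 foregut markers were higher in replicate 1 as well. The part of any of these cell types in the Hk3 counts was not tested.

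Gpi1, which turns glucose 6-phosphate into fructose 6-phosphate and is the only gene of its step, stood at 530 and 718 TPM. Phosphofructokinase-1, the committed step, was spread over 3 genes. Pfkl, named for liver, had 205 and 216 TPM, and Pfkp, named for platelets, had 102 and 162 TPM. Pfkl led in both pools, by 2.00-fold and 1.33-fold, but the mean log2 ratio of 0.70 ± 0.42 stayed under the limit of 1.02. Pfkm, the muscle form, was the lowest at 38.8 and 56.7 TPM, and Pfkp exceeded it by a mean log2 ratio of 1.46 ± 0.08 (limit 0.94). Both results on Pfkp turned on which transcripts were summed. Over protein-coding transcripts alone the lead of Pfkl over Pfkp rose to 1.22 and passed its limit of 1.05, and the lead of Pfkp over Pfkm was 0.92 and missed its limit of 0.97. Pfkp overlaps the opposite-strand gene Pitrm1 (6871 and 6600 counts) and Pfkm overlaps Senp1 (3184 and 2625 counts). Since a use of strand in the counting is not stated, reads could be shared within each pair.

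The bifunctional PFK-2/FBPase-2 enzymes set the level of fructose 2,6-bisphosphate, an activator of phosphofructokinase-1, and their 4 genes were all lowly expressed. Their summed level was 38.0 TPM in replicate 1 and 29.1 TPM in replicate 2. Pfkfb3, the form with the highest kinase activity relative to phosphatase, stood at 16.9 and 10.7 TPM, and Pfkfb1, known from liver and muscle, at 10.9 and 8.53 TPM. The lead of Pfkfb3 was 1.55-fold and 1.25-fold, with a mean log2 ratio of 0.48 ± 0.22 under the limit of 1.47. Over protein-coding transcripts alone Pfkfb3 had 12.4 and 7.09 TPM and Pfkfb1 had 8.74 and 7.21 TPM, so Pfkfb3 led in replicate 1 only. Pfkfb2, named as the heart form, had 4.18 and 6.23 TPM, and Pfkfb4, known from testis, had 5.96 and 3.65 TPM. The pairs compared established no order among these 4 genes. Pfkfb3 did not exceed Pfkfb4 beyond the limit (mean log2 ratio 1.53 ± 0.03, limit 1.69), except with the posterior mean TPM (1.64 against 1.59). Pfkfb1 and Pfkfb2 overlap the opposite-strand genes Apex2 (1383 and 1011 counts) and Yod1 (1318 and 1409 counts).

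At the step of aldolase, which splits fructose 1,6-bisphosphate, almost all TPM lay on Aldoa. Aldoa (ENSMUSG00000030695.9, chr7:126795234-126800751, - strand) stood at 1698 and 2094 TPM, while Aldoc, known from brain, stood at 9.35 and 14.6 TPM. The lead of 181-fold and 143-fold was the widest of the steps with several detected isoenzymes (mean log2 ratio 7.33 ± 0.24, limit 1.23). Tpi1, which interconverts the resulting triose phosphates, had 1208 and 1374 TPM. Next in the pathway, Gapdh, the oxidising step that yields NADH, had 3064 and 3629 TPM. Pgk1, the first step to yield ATP, had 559 and 614 TPM (ENSMUSG00000062070.8, chrX:106187100-106203699, + strand).

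Counts of Gapdh, Pgk1, Pgam1 and Eno1 have a further uncertainty, since near-identical copies take part of their reads. With copies defined as other genes sharing at least 95% identity over at least 200 nt of transcript, Gapdh had 85, of which 82 are annotated as pseudogenes, and together they held 5400 and 5241 counts, or 7.08% and 6.44% of those of Gapdh. Pgk1 had 2 pseudogene copies with 4054 and 4633 counts, or 13.8% and 16.0% of its own. For Pgam1 the copy Pgam1-ps2 held 1532 and 941 counts. Eno1 had 2 copies with 3454 and 2585 counts. Counts for these genes and their copies are estimates of how shared reads divide.

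Phosphoglycerate mutase was the step at which a muscle isoenzyme came closest to the broadly expressed one among the 5 leads that passed the limit. Pgam1, the broadly expressed form (ENSMUSG00000011752.6, chr19:41911923-41918660, + strand), stood at 1010 and 990 TPM. Pgam2, the muscle form (ENSMUSG00000020475.3, chr11:5801640-5803733, - strand), stood at 399 and 605 TPM and made up 33.1 ± 6.80% of the step. The lead of Pgam1 was 2.53-fold in replicate 1 and 1.64-fold in replicate 2, a mean log2 ratio of 1.02 ± 0.45 against a limit of 0.94. In replicate 2 alone it was 0.71 and did not pass, so the lead rests on replicate 1.

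The TPM of enolase lay mainly on Eno1, the broadly expressed form (ENSMUSG00000063524.9, chr4:150236721-150248879, + strand), at 2999 and 2744 TPM. Eno3, the muscle form, had 156 and 216 TPM, and Eno2, the neuronal form, had 3.75 and 4.07 TPM. Eno1 exceeded Eno3 by 19.2-fold and 12.7-fold (mean log2 ratio 3.96 ± 0.42, limit 1.04). Eno3 made up 6.12 ± 1.66% of the step, against the 33.1% of Pgam2 at the step before.

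Lactate dehydrogenase had the largest summed level of the 18 steps, 3825 TPM in replicate 1 and 4211 TPM in replicate 2. Ldha, whose subunit prevails in anaerobic tissues (ENSMUSG00000063229.10, chr7:46841475-46855627, + strand), stood at 3458 and 3718 TPM. Ldhb, whose subunit prevails in the adult heart, stood at 367 and 494 TPM, or 10.7 ± 1.50% of the step. Ldha exceeded Ldhb by 9.42-fold and 7.53-fold (mean log2 ratio 3.07 ± 0.23, limit 0.98).

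**Figure D2:**
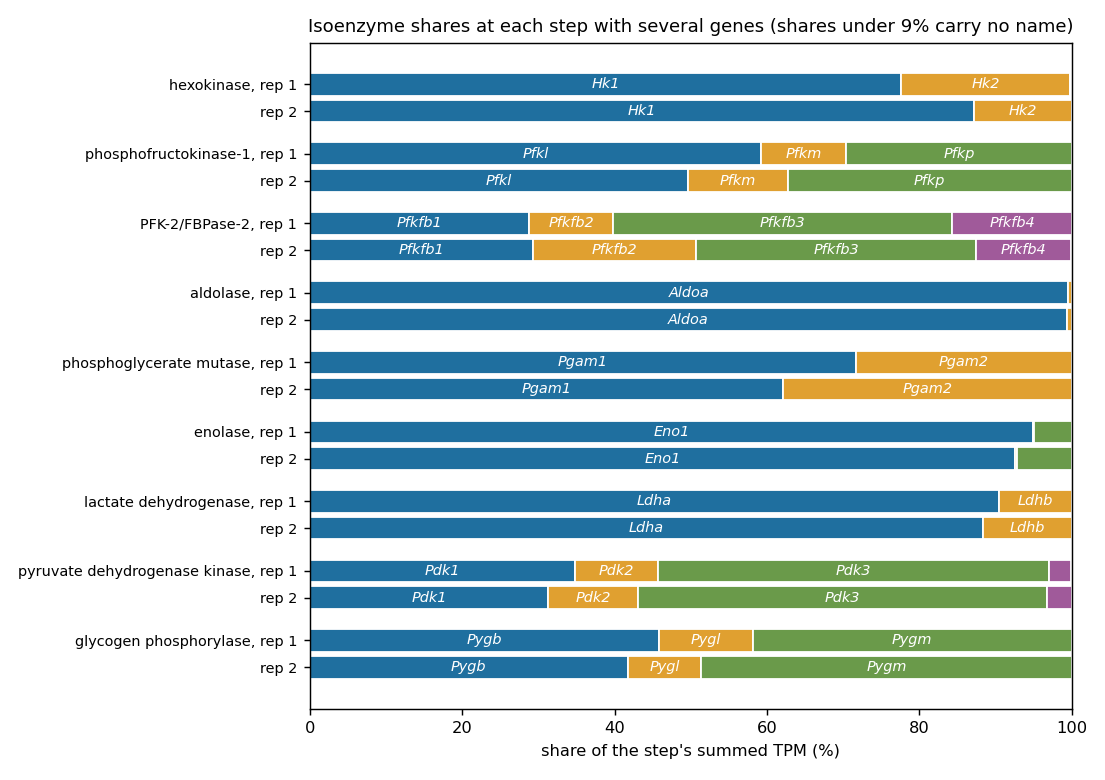
Share of each step's summed TPM, in percent, taken by each isoenzyme gene in replicates 1 and 2. Of the 10 steps with several member genes, all but fructose bisphosphatase are drawn, which rests on 9 counts or fewer per gene. Aldoa, Eno1 and Ldha fill most of their bars in both pools, whereas phosphofructokinase-1, the PFK-2/FBPase-2 enzymes, pyruvate dehydrogenase kinase and glycogen phosphorylase are divided among genes.

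The subunit genes of the pyruvate dehydrogenase complex together held less TPM than Ldha alone in both pools, at 628 and 877 TPM. Pdhb, the beta subunit of the decarboxylating E1 enzyme, stood at 267 and 368 TPM, and Pdha1, its X-linked alpha subunit, at 122 and 186 TPM. Dld, the E3 subunit that other complexes also use, had 151 and 195 TPM, and Dlat, the E2 core, had 87.9 and 128 TPM. The order Pdhb, Dld, Pdha1, Dlat was the same in both pools. Pdhb exceeded Dlat by a mean log2 ratio of 1.56 ± 0.05 (limit 1.00) but did not exceed Dld beyond the limit (0.87 ± 0.07, limit 1.01). By counts not divided by length, Pdhb over Dlat fell under its limit (0.52 against 1.03).

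Pyruvate dehydrogenase kinases switch the complex off by phosphorylation, and 2 of their 4 genes shared most of the step. Pdk3 stood at 107 and 161 TPM and Pdk1 at 72.8 and 93.4 TPM. The lead of Pdk3, 1.47-fold and 1.72-fold, gave a mean log2 ratio of 0.67 ± 0.16, under the limit of 0.95. Which of the pair was higher depended on the measure: over coding transcripts alone the lead of Pdk3 was 1.34 and passed, while by counts not divided by length Pdk1 led (-0.35 against a limit of 0.99). Pdk2 was lower at 22.8 and 34.8 TPM, and Pdk1 exceeded it by a mean log2 ratio of 1.55 ± 0.18 (limit 0.92). Pdk4, the kinase known for its rise in the fasted and adult heart, was the lowest at 6.10 and 9.70 TPM.

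Of the genes for glucose production among the members, both fructose bisphosphatase genes were below 1 TPM in both pools. Fbp1, the gluconeogenic fructose bisphosphatase of liver, had 5 counts in replicate 1 and 0 in replicate 2, where a count of 0 allows up to 3, and Fbp2, the muscle form, had 6 and 9 counts. Pck2, the mitochondrial phosphoenolpyruvate carboxykinase, was expressed at 15.8 and 16.5 TPM. G6pdx, the X-linked enzyme that opens the pentose phosphate pathway, had 28.8 and 22.2 TPM, and it overlaps the opposite-strand gene Ikbkg (1782 and 2009 counts).

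For glycogen, both the synthase and the phosphorylases were present, and no phosphorylase prevailed. Gys1, the synthase of muscle and most tissues, stood at 66.5 and 105 TPM. It overlaps the opposite-strand gene Ruvbl2 (6892 and 4570 counts against 7137 and 10090 for Gys1). Pygm, the muscle phosphorylase (ENSMUSG00000032648.10, chr19:6384399-6398459, + strand), had 85.1 and 180 TPM, and Pygb, the brain form, had 93.2 and 154 TPM. Pygb was the higher in replicate 1 and Pygm in replicate 2, and the mean log2 ratio of Pygm over Pygb was 0.05 ± 0.25 with a limit of 0.97. By counts and over coding transcripts alone Pygb led in both pools, by mean log2 ratios of Pygm over Pygb of -0.79 and -0.41, neither past its limit of 1.03. Pygl, the liver form, was lower at 25.0 and 35.9 TPM, and Pygb exceeded it by a mean log2 ratio of 2.00 ± 0.15 (limit 0.94).

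Between the pools, most members were higher in replicate 2. The ratio is given as log2 of TMM-scaled counts, replicate 2 over replicate 1, and a gene was called where it differed at least 2-fold, its mean count was 50 or more and the TPM intervals that the authors deposited lay apart. Of 36 members with enough counts, 2 (5.56%) were called higher in replicate 2, beside 2.31% of all 14124 genes tested, and 0 were called higher in replicate 1, beside 4.74%. Those called were Pygm (log2 ratio 1.20, 2.30-fold) and Hk1 (log2 ratio 1.02, 2.03-fold). Hk1 lay close to the 2-fold line and dropped to 0.90 by deposited TPM, while Pygm stood at 1.08. Pdk4 (0.94) and Pygb (0.83) came next below the line. A count of 2 genes is small, and nothing particular to these enzymes is read from it.

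Of the 37 members with a mean count of 10 or more, 31 had a ratio above 0, or 83.8%, against 49.7% of 17547 genes with that minimum. The median ratio of the members was 0.53 with quartiles of 0.17 and 0.70, and that of all genes 0.00 with quartiles of -0.30 and 0.28. The 6 members on the other side were Hk3, Pfkfb1, Pfkfb3, Pfkfb4, Eno1 and G6pdx. Scaling by the spike-ins turned Pfkfb1, Eno1 and G6pdx to the side of replicate 2, and deposited TPM turned Hk2 and Pgam1 to that of replicate 1. These scalings moved the median of all genes to 0.32 and -0.11. The median of the members lay 0.53 to 0.54 above that of all genes under each scaling tried. A change of scaling factor adds the same amount to every log2 ratio, so with the spike-ins this difference could not change. It is therefore no check on the ratios of the members. The deposited intervals used in the calls cover estimation error within a library and not the spread between pools.

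**Figure D3:**
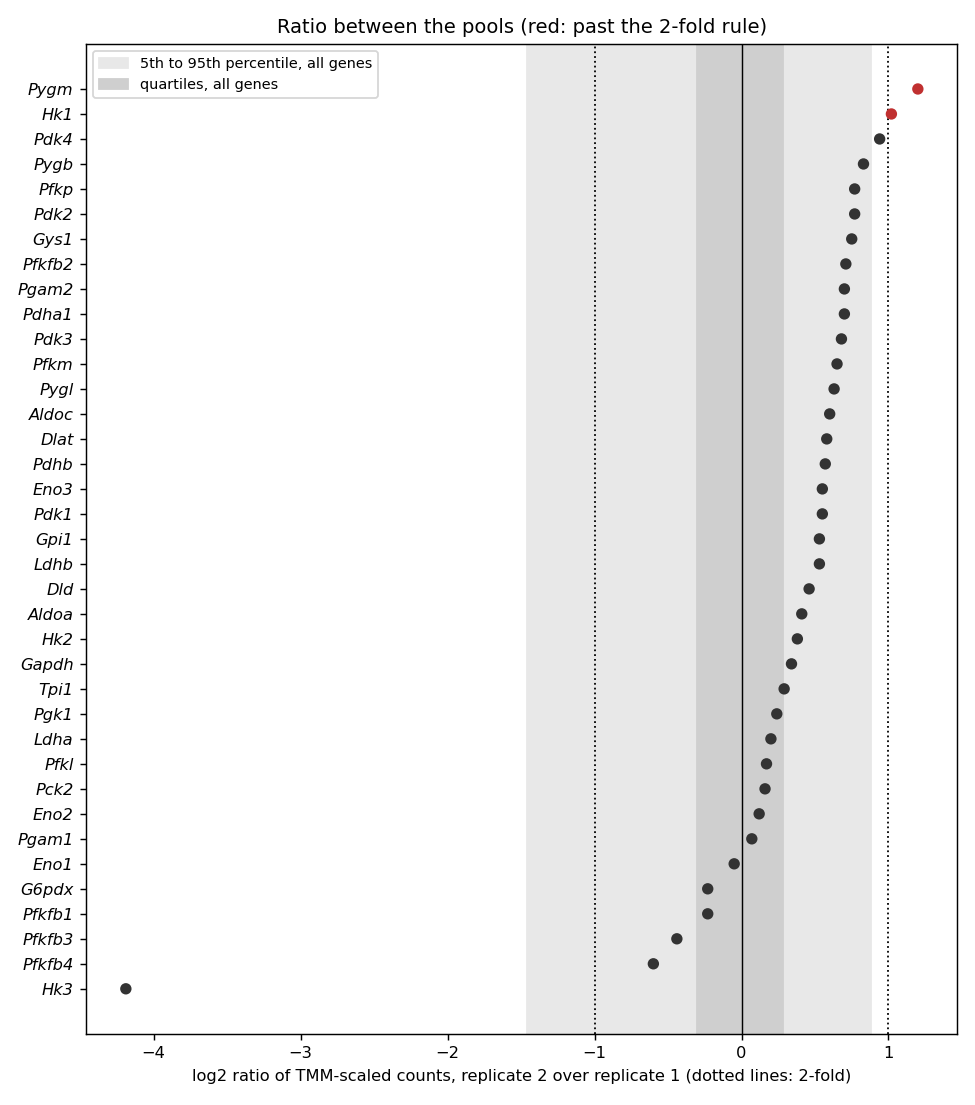
Log2 ratio of TMM-scaled counts, replicate 2 over replicate 1, for the 37 members with a mean count of 10 or more, with grey bands for the quartiles and the 5th to 95th percentiles of all genes and dotted lines at 2-fold. Pygm and Hk1, in red, lie past the 2-fold line, and Hk3, far to the left at -4.19, rests on 32 counts and 1 count; these ratios include a prior count of 0.5.

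Within this shift the steps differed. The muscle or heart isoenzyme had a larger ratio than the leading isoenzyme of its step in 5 cases, picked after the values were seen: Pfkfb2 0.71 against Pfkfb3 -0.44, Pgam2 0.70 against Pgam1 0.07, Eno3 0.55 against Eno1 -0.05, Pfkm 0.65 against Pfkl 0.17, and Ldhb 0.53 against Ldha 0.20. Hexokinase went the other way, with Hk2 at 0.38 against 1.02 for Hk1, and Pfkp, at 0.77, exceeded Pfkm. The glycogen synthase and phosphorylase genes ranged from 0.63 for Pygl to 1.20 for Pygm, with Gys1 at 0.75. The 4 subunit genes of the pyruvate dehydrogenase complex lay between 0.46 (Dld) and 0.70 (Pdha1), and the 4 kinase genes between 0.55 (Pdk1) and 0.94 (Pdk4). Glycolytic genes with a single member per step had smaller ratios, 0.24 for Pgk1, 0.29 for Tpi1 and 0.34 for Gapdh, except Gpi1 at 0.53. Markers of heart muscle (median 0.87), endothelium (0.52) and embryonic red cells (0.36) were also mostly higher in replicate 2. The other marker lists had negative medians, from -0.08 for epicardium to -4.64 for liver primordium. With 1 library per pool these differences between members have no replicate check, and the part of tissue content in them was not tested.

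The transcripts behind a gene's level affect its comparison with other genes, because TPM gives a short transcript more weight per read. Of the 36 detected members, 32 had the same main transcript by TPM in both pools, the exceptions being Hk2, Pfkfb2, Pfkfb3 and Eno2. For Gapdh that main transcript was Gapdh-208, annotated as a processed transcript without a coding frame and only 483 nt long, with 52.1% and 53.0% of the gene's TPM but 24.5% and 24.9% of its counts. Over coding transcripts alone Gapdh stood at 1434 and 1678 TPM, below Aldoa at 1672 and 2066 TPM, whereas for whole genes it stood above it. Hk2 had a similar short model, Hk2-202 (594 nt), with 60.6% and 46.9% of its TPM but 12.3% and 7.53% of its counts. Pygm-203 (532 nt, a retained intron) held 28.8% and 27.2% of the TPM of Pygm and 5.94% and 5.55% of its counts. In all, 12 detected members had under 90% of their TPM on coding transcripts in at least 1 pool.

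**Figure D4:**
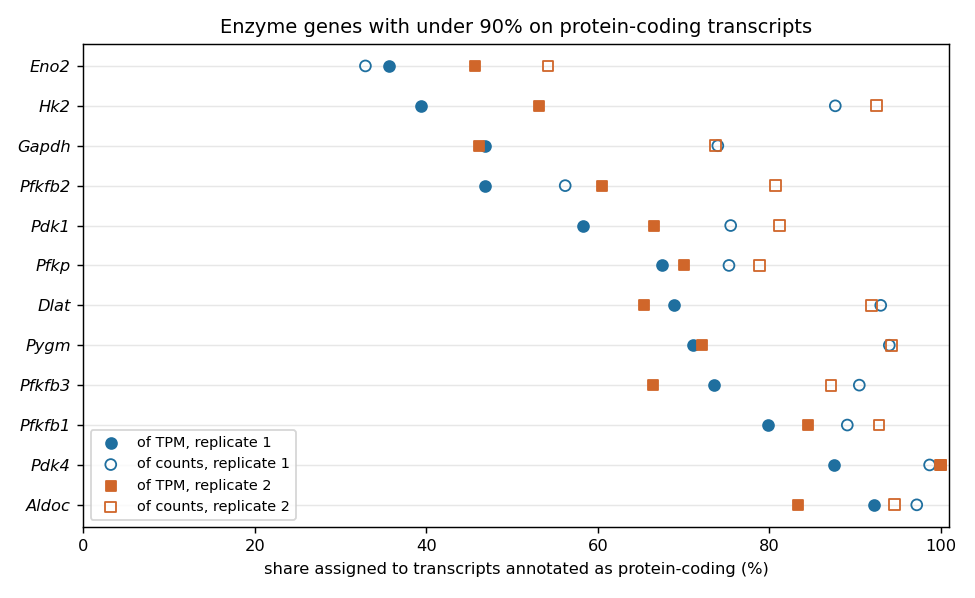
Share, in percent, of the TPM (filled symbols) and of the counts (open symbols) assigned to transcripts annotated as protein-coding, for the 12 members with under 90% of TPM in at least 1 pool; circles are replicate 1 and squares replicate 2. For Gapdh, Hk2, Dlat and Pygm the share of counts lies well to the right of the share of TPM, as for Gapdh with 74.0% and 73.7% of counts against 46.8% and 46.2% of TPM.

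For Hk1, the hexokinase called higher in replicate 2, both main transcripts are coding and start at different sites of chr10. Hk1-202, which starts at 62340542, held 63.8% and 65.4% of the gene's TPM, and Hk1-201, which starts at 62358362, held 31.6% and 32.7%. The shares of both forms were close in the pools, at a gene level that differed 2.03-fold after scaling. Pfkm also had a pair of coding transcripts with separate starts on chr15, and here the shares differed more: Pfkm-202 (98092589) held 62.0% and 51.0%, and Pfkm-201 (98108466) held 38.0% and 49.0%. Of the TPM of Aldoa, 92.1% and 92.7% lay on Aldoa-201 alone. Shares of transcripts are estimates from reads that several models have in common.

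Other genes of the same pathways extend the picture to steps with no member in the set. Of 47 such genes, 35 reached 1 TPM in both pools. The most abundant by mean TPM were Pkm, the pyruvate kinase of muscle and most embryonic tissues (1914 and 1882 TPM), Gyg, the glycogenin that primes glycogen (370 and 684 TPM), and Pgm1, a phosphoglucomutase that links glucose 6-phosphate with glycogen (215 and 277 TPM). Of 41 with a mean count of 10 or more, 26 were higher in replicate 2 and 15 in replicate 1, with a median log2 ratio of 0.21. Of 35 tested, 2 were called higher in replicate 2: Pdpr, the regulatory subunit of pyruvate dehydrogenase phosphatase (log2 ratio 1.11), and Gbe1, the glycogen branching enzyme (1.00), beside the same 2.31% of all genes. Gyg, at 0.99, lay just under the line. Epm2a (1.14), a glycogen phosphatase gene, rests on 10 and 19 counts.

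Among the other pathway genes with a large ratio toward replicate 1 was Gys2. Gys2, the liver glycogen synthase, had 89 counts in replicate 1 and 3 in replicate 2, or 24.9-fold after scaling, with no prior count and an exact 95% interval of 8.26 to 123 for counting error. Hkdc1, a hexokinase-like gene, had 3.93 and 1.91 TPM (log2 ratio -0.95). The summed liver markers moved the same way (1613 and 82.3 TPM), and their part in these values was not tested.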

How the data were processed

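RNA from 2 pools of hearts was measured; the authors deposited gene and transcript tables for both libraries. These deposited tables hold expected counts (estimated reads per feature, not normalised), TPM, FPKM, posterior means, lengths, the percent of a gene's TPM held by each transcript, and interval bounds of TPM, treated as a score. Per the labels the assembly was mm10, and per the deposited description the annotation was release M4; the program that quantified them and its strand setting were not given in the sources used here. Names and positions came from GENCODE M21 (GRCm38), which matched 42462 of 43346 genes. The members and lists were chosen with earlier results of these data known. TMM factors came from edgeR 4.0.16 (R 4.3.3), alternative size factors from DESeq2 1.42.0, both on rounded expected counts with a mean of 10 or more. No count test was run, since 1 group of 2 libraries allows none. Ratios used a prior count of 0.5, except the folds of Hk3 and Gys2 given with intervals, and leads a pseudocount of 0.01 TPM. On mouse genes lay 43295923 and 39786163 counts; intervals and the floor of 3 counts cover counting error only. The code of the call rule and of the limit was run on simulated data. Those data had a uniform spread and, in place of the deposited intervals, intervals drawn from counts. That run therefore checks the code only and lends no support to the calls in these pools. Values in both pools are given for the leading genes, the runners-up, single-gene steps, subunits and called members; of other pathway genes with a mean count of 10 or more, the 3 most abundant and the 3 with the largest ratio each way, 1 of which is not reported here. Values for other members, the pairs beyond leader and runner-up, and the windows printed were chosen after the data were seen. Alternatives covered scaling, thresholds, FPKM, posterior means, coding transcripts and each pool alone.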

Additional observations from a re-analysis of the deposited data

How the results depend on the processing

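No paired analysis was possible because there is 1 group of 2 libraries. Scaling changed the pool ratios: 11 members were at least 2-fold higher in replicate 2 with the ERCC spike-ins (862 of all genes, against 326 with TMM) and 1, Pygm, with deposited TPM (240 of all genes). The members added by the spike-ins were Pfkp, Pfkfb2, Pgam2, Pdha1, Pdk2, Pdk3, Pdk4, Gys1 and Pygb. The median ratio of the members was 0.86 with the spike-ins, where that of all genes was 0.32. Of 37 members, 34 were higher in replicate 2 with the spike-ins and 29 with deposited TPM, where the median of all genes was -0.11. The share of all genes higher in replicate 2 was taken under TMM only. Both counts of members therefore have no background beside them, and nothing is read from them. The calls of Hk1 and Pygm were the same under DESeq2 size factors, a prior count of 2, posterior mean counts, and each change of the count minimum or the interval criterion. Detected members numbered 36 in either pool alone or at 0.5 TPM and 33 at 5 TPM. Leads past the limit numbered 5 in either pool alone, with FPKM, posterior mean TPM or a pseudocount of 1 TPM, 6 by counts not divided by length and 7 over coding transcripts. The sixth by counts was Fbp2 over Fbp1, which rests on 9 counts or fewer per gene; in replicate 2 alone it passed too (4.81 against 3.63), in place of Pgam1 (0.71 against 0.94). The same main transcript in both pools was found for 34 members by counts and 33 among coding transcripts. Depth limits Hk3, Fbp1 and Fbp2, and 2 libraries leave every difference between the pools without a replicate check.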
